A study of Mus musculus with 16 samples.

Results

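The 32 genes examined here encode the enzymes and carriers of glycolysis, the regulators that sense oxygen through the hypoxia-inducible factor (HIF), and a small set of hypoxia targets. They were chosen by name. Each mouse symbol was matched to 1 Ensembl identifier of the 55414 in the count table. All 32 passed the filter on low counts and were tested among 15285 genes, although Car9, Aldoc and Ankrd37 did so with at most 197 counts in a library. Aldoa has 2 identifiers, of which the one holding nearly all of its counts was used.

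RNA was sequenced from cultured mouse cardiac fibroblasts at passage 2, after 24 h without serum and 5 h with an adenovirus. The GFP group received a virus for green fluorescent protein. The Cre group received a Cre recombinase virus, which the labels describe as removing exon 2 of Has2, a hyaluronan synthase gene. The GFP_TGFB and Cre_TGFB groups received the same viruses followed by transforming growth factor beta (TGFB), a cytokine that turns fibroblasts into matrix-producing myofibroblasts, and RNA was taken after 48 h of stimulation. The protocol names basic fibroblast growth factor and TGFB in 1 clause at 20 ng/mL, and whether the libraries labelled without TGFB received the former is not stated. Each group held 4 libraries, numbered by replicate, and the 4 libraries of a number deviated together and are called a preparation here. Preparations 1 and 4 are labelled male and preparations 2 and 3 female. The protocol names Has2fl/fl mice and the genotype field reads Wild Type C57BL/6J for all 16 libraries. The ages of the mice, and whether a preparation held 1 heart or several, are not given in the labels. P-values of the fit without a block therefore measure the spread within each group between libraries of these 4 preparations, taken as independent. Those of the fit with preparation as a block measure the spread left after differences between preparations are removed.

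Glycolysis splits glucose into pyruvate in the cytosol. Hexokinase traps the sugar, phosphofructokinase sets the pace under the control of the PFKFB enzymes, the lower enzymes yield ATP, and lactate dehydrogenase and pyruvate dehydrogenase compete for the pyruvate. HIF-1, whose alpha subunit is marked for destruction by the prolyl hydroxylases Egln1 and Egln3 when oxygen is present, switches on many of these enzymes when oxygen is low, together with genes such as Pdk1, Bnip3 and Ankrd37. In cardiac fibroblasts both TGFB and low oxygen are known to alter glucose use and matrix production.

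HIF binds DNA at a short core that reads ACGTG in one form, with GCGTG as the other, so the promoters of the members were read for these letters on both strands. The windows were the 250 bases before each transcription start in the RefSeq promoter table (build GRCm38.p6, earlier than the build named for the counts). A window was found for 30 of the 32 members (all but Bnip3l and Ndrg1), and 9 of them had more than 1. ACGTG was found for 17 of the 30 members (56.7%) and for 18.5% of 27025 genes with a window. GCGTG was found for 19 members (63.3%) and for 30.9% of the genes. At least 1 of the pair was found for 27 members (90.0%) and for 41.5% of the genes. Counted by window, ACGTG stood in 46.5% of 43 member windows and 16.6% of 32851 windows of all genes. At least 1 of the pair stood in 81.4% and 38.6% of them. The list was chosen by name and holds known HIF targets, so these shares describe it and do not test it. ACGTG is also part of CACGTG, the E-box, which was found for 6 members (20.0%) and 6.86% of the genes, and in 4 member windows ACGTG lay only within it. A match describes the letters of the window and does not show that a factor bound there. The 5 windows below belong to 3 genes that fell with TGFB (Ankrd37, Bnip3 and Egln3), to the gene that rose most among the members (Hk2) and to the abundant enzyme gene Ldha, whose window holds the most ACGTG matches. Capitals mark matches to either form of the core on either strand, and each sequence is on the strand of its gene, 5′ to 3′, ending at the base before the start site.
Ankrd37 (chr8:45999851-46000100, minus strand): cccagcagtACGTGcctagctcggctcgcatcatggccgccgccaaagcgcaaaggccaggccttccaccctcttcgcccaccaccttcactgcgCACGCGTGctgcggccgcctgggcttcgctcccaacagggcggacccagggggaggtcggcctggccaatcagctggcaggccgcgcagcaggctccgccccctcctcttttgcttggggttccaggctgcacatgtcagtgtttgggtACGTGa
Bnip3 (chr7:138909507-138909756, minus strand): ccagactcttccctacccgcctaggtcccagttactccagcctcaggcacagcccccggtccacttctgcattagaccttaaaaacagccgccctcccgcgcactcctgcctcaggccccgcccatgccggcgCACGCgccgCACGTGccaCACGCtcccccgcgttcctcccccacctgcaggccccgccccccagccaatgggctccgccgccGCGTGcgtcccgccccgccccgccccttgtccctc
Egln3 (chr12:54203875-54204124, minus strand): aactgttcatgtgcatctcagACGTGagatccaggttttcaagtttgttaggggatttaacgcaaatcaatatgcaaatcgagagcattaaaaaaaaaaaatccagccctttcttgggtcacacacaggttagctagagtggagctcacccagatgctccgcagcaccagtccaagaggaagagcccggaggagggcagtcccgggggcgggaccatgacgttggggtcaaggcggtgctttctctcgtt
Hk2 (chr6:82774455-82774704, minus strand): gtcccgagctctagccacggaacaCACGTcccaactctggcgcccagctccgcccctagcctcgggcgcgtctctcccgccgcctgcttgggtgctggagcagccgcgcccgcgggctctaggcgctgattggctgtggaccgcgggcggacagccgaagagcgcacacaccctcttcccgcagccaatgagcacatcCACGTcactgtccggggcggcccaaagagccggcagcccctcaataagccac
Ldha (chr7:46845554-46845803, plus strand): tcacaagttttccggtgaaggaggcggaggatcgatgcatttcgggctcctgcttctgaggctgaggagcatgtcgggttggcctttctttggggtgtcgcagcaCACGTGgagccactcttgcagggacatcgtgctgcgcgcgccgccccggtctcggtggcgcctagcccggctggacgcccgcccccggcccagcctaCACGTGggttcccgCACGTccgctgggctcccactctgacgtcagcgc

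The windows of Ankrd37 and Bnip3 each hold 4 or more matches, Egln3 and Hk2 hold 1 and 2, and the 5 ACGTG matches of Ldha include each strand of 2 E-boxes, which read the same on both strands. Of the 17 members with ACGTG, 1 was called higher with TGFB in GFP cells, 4 lower and 12 neither. Of the 13 without it, 2 were called higher, 4 lower and 7 neither. Bnip3l, which was called lower, had no window and is in neither count. Among all genes tested 13.8% were called higher and 15.3% lower. Shares of all genes split by motif were not computed, so these counts are a description only.

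The libraries held 17.9 to 48.7 M counts. The first principal component (55.3% of the variance) separated libraries by TGFB and the second (20.3%) set preparation 4 apart, so counts of calls are given with and without preparation 4. Has2 itself stood at 18.7 ± 3.27 CPM (counts scaled to library size with TMM factors, mean ± SD, n = 4) with the GFP virus and 14.7 ± 1.38 with the Cre virus, both without TGFB. Its Cre against GFP difference was -0.35 ± 0.26 without TGFB (log2 fold change ± SE, edgeR adjusted p = 0.9997) and -0.03 ± 0.26 with it (adjusted p = 0.9996). Without TGFB it was lower in the Cre library of all 4 preparations (-0.27, -0.18, -0.48 and -0.40 log2), and with the preparation as a block the difference was -0.32 ± 0.15 (edgeR adjusted p = 0.827). With TGFB it was lower in 2 of 4. Counts over the whole gene do not separate exon 2 from the rest. All 10 fibroblast markers were above 1 CPM in every group, with summed levels of 14676 to 47393 CPM, and 8 of them fell with TGFB. The other 2, Col1a1 and Col1a2, were not called and had higher mean levels with TGFB in GFP cells (9665 and 17431 CPM for Col1a1, 9683 and 11549.8 CPM for Col1a2). Of the cardiomyocyte markers Actc1, Nppa and Pln had no count in any library, the sum of 10 was 3.12 to 23.6 CPM, and 2 of the 3 tested fell with TGFB in GFP cells.

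The members took 1.33% to 1.68% of the counts in GFP libraries, 1.51% to 1.82% in Cre, 1.33% to 1.55% in GFP_TGFB and 1.30% to 1.62% in Cre_TGFB. Scaled to the length of the principal transcript, the members ranged from 0.398 to 1649 CPM per kb in GFP cells. Gapdh (1649 CPM per kb), Pkm (1237) and Aldoa (1026) were the most abundant, followed by Ldha (750.3), Eno1 (693) and Pgk1 (537). The HIF system was lower, with Hif1a at 41.5, Egln1 at 35.3 and Egln3 at 5.21 CPM per kb. Aldoc (0.407) and Car9 (0.398) were the lowest. Eno1 has a near-identical retrogene, Eno1b, that took 155380 counts over all libraries, so the split of reads between them is uncertain.

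With TGFB, members were called in both directions. In GFP cells 3 members rose (Hk2, Pfkp and Pfkfb4) and 9 fell (Gpi1, Pfkl, Ldhb, Pdk1, Egln1, Egln3, Bnip3, Bnip3l and Ankrd37). The 3 that rose act early in the pathway, as do Gpi1 and Pfkl among those that fell. Among all genes tested 13.8% were called higher and 15.3% lower. The call used edgeR's quasi-likelihood test with Benjamini-Hochberg adjustment over all genes, at an adjusted p under 0.05. The median log2 fold change of the 32 members was -0.15, against -0.02 over all genes. In Cre cells the same 3 genes were called higher and 12 lower (the 9 above with Pgk1, Ldha and Aldoc), beside 14% higher and 16.3% lower among all genes, and the member median was -0.20, against 0.02 over all genes. The member shares called lower were above the share of all genes in both cell groups and the shares called higher were below it, and no test of the list was made. The members were also more abundant than the genes they are set against, with a median level of 6.86 against 3.86 log2 CPM. Across genes the TGFB difference had a Spearman correlation with level of 0.18 in GFP cells and 0.10 in Cre cells. The part of level in the member shares was not tested.

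More members were called once preparation entered the model as a block: 5 higher and 15 lower in GFP cells, against 22.6% and 26.5% of all genes, and 3 higher and 17 lower in Cre cells, against 25.2% and 27.3%. The added members in GFP cells were Slc2a1 and Gapdh (higher) and Hk1, Pfkm, Pfkfb3, Aldoc, Ldha and Car9 (lower). In Cre cells they were Hk1, Pfkm, Tpi1, Pfkfb3 and Car9, all lower. Every member called without the block was also called with it, under both viruses. The common coefficient of variation between libraries, as edgeR fits it, was 0.254 without the block and 0.123 with it. Calls described below as lost come from fits without the block, which leave out the pairing, unless the block is named. Without preparation 4 and without a block, 5 members were called higher and 9 lower in GFP cells (18.6% and 21.3% of all genes) and 3 higher and 14 lower in Cre cells (20.2% and 22.5%). By the libraries alone, 4 members were higher and 11 lower in every GFP_TGFB library than in every GFP library, against 15.1% and 14.7% of all genes. In Cre cells 2 were higher and 13 lower without overlap, against 12.5% and 15.8%.

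**Figure D1:**
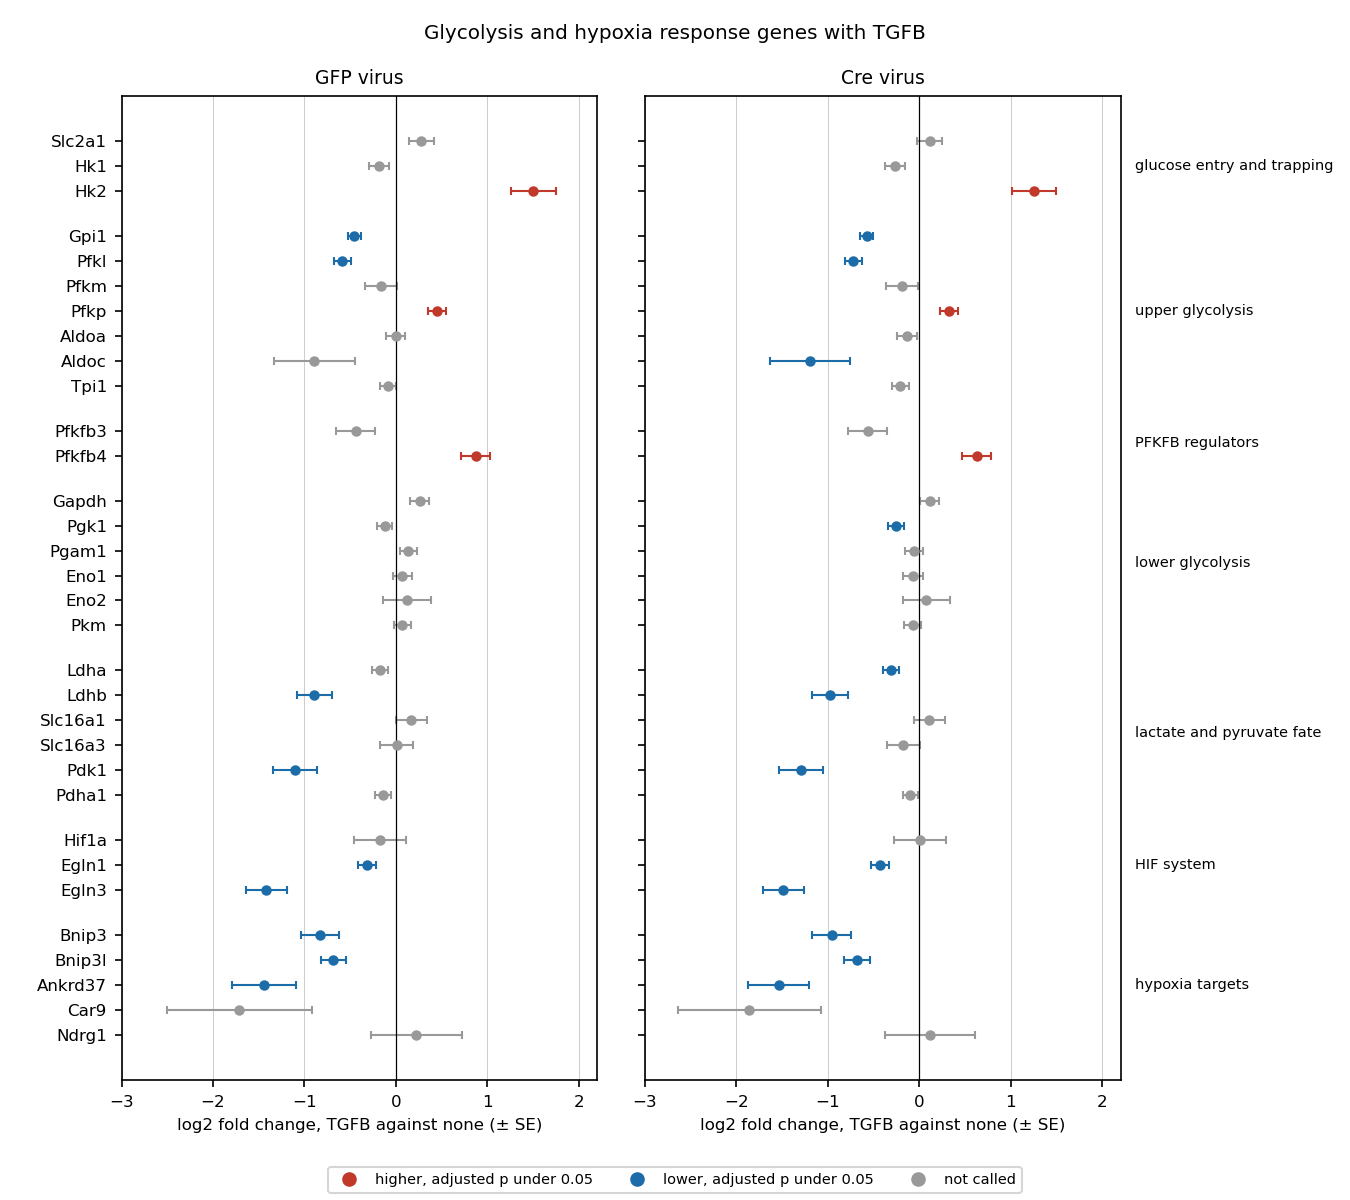
Log2 fold change of each of the 32 genes with TGFB against none, fitted without a block, in GFP virus cells (left) and Cre virus cells (right). Points are the fitted values, bars are ± 1 SE and colour gives the call, with genes ordered by role. Hk2, Pfkp and Pfkfb4 lie to the right of 0 in both panels, of the lower enzymes from Gapdh to Pkm only Pgk1 in the right panel is called, and Pdk1, Egln3, Bnip3, Bnip3l and Ankrd37 lie to the left.

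Glucose enters fibroblasts through the carrier Slc2a1 (GLUT1) and is trapped by the hexokinases Hk1 and Hk2. Hk2, the hexokinase that insulin and growth signals induce, stood at 47.7, 64.5, 83.8 and 91.3 CPM in GFP preparations 1 to 4 and at 200.2, 233, 221 and 158 CPM in GFP_TGFB. Its Cre levels were 50.7, 75.3, 107 and 81.5 CPM and its Cre_TGFB levels 188, 222, 209 and 129. Every library with TGFB was above every library without it, and preparation 4 had the lowest level with TGFB in both virus groups. Hk2 rose 2.83-fold in GFP cells (1.502 ± 0.24 log2, edgeR adjusted p = 0.000295) and 2.38-fold in Cre cells (1.25 ± 0.24, adjusted p = 0.00117). Within preparations 1 to 4 the log2 difference was 2.07, 1.85, 1.40 and 0.79 in GFP cells.

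Hk1, the constitutive hexokinase, stood at 238 ± 19.2 CPM (mean ± SD, n = 4) in GFP and 209 ± 13.2 in GFP_TGFB, and was not called without the block (-0.18 ± 0.11, adjusted p = 0.222). It was lower with TGFB in 4 of 4 preparations under both viruses, and with the preparation as a block it fell in GFP cells (-0.18 ± 0.06, adjusted p = 0.0238) and in Cre cells (-0.26 ± 0.06, adjusted p = 0.00237). Slc2a1 stood at 111, 117, 145 and 161 CPM in GFP and 168, 161, 162 and 156 in GFP_TGFB. Its 4 TGFB levels were close together while the levels without TGFB were spread, and the groups overlapped through preparation 4. The fitted difference was 0.28 ± 0.13 in GFP cells (adjusted p = 0.139). It was called with the block (0.29 ± 0.11, adjusted p = 0.0431) and without preparation 4 (0.40, adjusted p = 0.0357). In Cre cells Slc2a1 was not called in either fit (0.12 ± 0.13, adjusted p = 0.541).

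In upper glycolysis Gpi1 and Pfkl fell and Pfkp rose. Gpi1, which converts glucose 6-phosphate to fructose 6-phosphate, stood at 769.9, 822, 781 and 761 CPM in GFP and 574, 565, 567 and 579 in GFP_TGFB. The Cre levels were 805, 819, 813 and 802 CPM and the Cre_TGFB levels 558, 503, 532 and 583. The groups were far apart and the spread within each was small. On the log2 scale the change was -0.46 ± 0.07 in GFP cells (edgeR adjusted p = 0.000246) and -0.57 ± 0.07 in Cre cells (adjusted p = 3.05e-05), to 0.729 and 0.672 times the level without TGFB.

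Pfkl, the liver-type phosphofructokinase and the main one here, stood at 369.9, 417, 400.3 and 348 CPM in GFP and 282, 262, 259 and 219 in GFP_TGFB. Cre libraries held 411, 422, 423 and 396 CPM and Cre_TGFB libraries 271, 252, 241 and 238. All 8 libraries with TGFB were below all 8 without it. On the log2 scale the change was -0.59 ± 0.09 in GFP cells (edgeR adjusted p = 0.000209) and -0.72 ± 0.09 in Cre cells (adjusted p = 3.24e-05). Pfkp, the platelet type, went the other way, from 69.2, 77.3, 80.4 and 86.7 CPM in GFP to 114, 116, 103 and 96.3 in GFP_TGFB. The levels were 74.5, 78.05, 91.9 and 88.1 CPM in Cre and, in Cre_TGFB, 112, 106, 101 and 96.2. The groups did not overlap under either virus, but in preparation 4 the levels with and without TGFB lay close together. The rise was 0.45 ± 0.10 in GFP cells (adjusted p = 0.00282) and 0.32 ± 0.10 in Cre cells (adjusted p = 0.0212). In Cre cells the call was lost when Cre replicate 1 (adjusted p = 0.0775), Cre replicate 2 (0.0660) or Cre_TGFB replicate 1 (0.0635) was left out, and when preparation 1 (0.190) or 2 (0.145) was. It was also lost with no filter on low counts (0.0671), in a fit of the 8 compared libraries alone (0.0591), and with the block when preparation 1 (0.0768) or 2 (0.0738) was left out. In GFP cells it was lost without preparation 1 (0.0532).

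The other members of upper glycolysis were not called in GFP cells. Pfkm, the muscle type, stood at 79.7 ± 16.9 CPM in GFP and 71.0 ± 12.02 in GFP_TGFB, lower in 4 of 4 preparations (-0.17 ± 0.17, adjusted p = 0.516), and it was called lower when the block was added (adjusted p = 0.0487 in GFP and 0.0198 in Cre cells). Aldoa, the abundant aldolase, stood at 1550.5 ± 156 and 1546 ± 74.7 CPM (-0.00 ± 0.11), with a 95% interval of -0.23 to 0.22. Tpi1, the triose isomerase, stood at 719.9 ± 60.9 and 679 ± 52.2 CPM (-0.09 ± 0.09). In Cre cells Tpi1 was at -0.21 ± 0.09 (adjusted p = 0.0959), and it was called lower there with the block (adjusted p = 0.0214). Aldoc, the brain-type aldolase, had 5 to 83 counts a library and stood at 0.601, 1.44, 0.875 and 2.04 CPM in Cre and 0.422, 0.452, 0.554 and 0.762 in Cre_TGFB, with groups that overlapped. Its call in Cre cells (-1.19 ± 0.44, edgeR adjusted p = 0.0499) lay at the threshold and was lost without any 1 of Cre replicate 2 (adjusted p = 0.109), Cre replicate 4 (0.151) or Cre_TGFB replicates 1 (0.115), 2 (0.110) and 3 (0.0843), and without preparation 1 (0.0978), 2 (0.149), 3 (0.0960) or 4 (0.106). It was lost as well with no filter on low counts (0.0669) and in a fit of the 8 compared libraries alone (0.0646).

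The PFKFB enzymes make and break fructose 2,6-bisphosphate, the activator of phosphofructokinase, and Pfkfb4 rose under both viruses. Pfkfb4 stood at 6.58, 6.77, 6.28 and 7.45 CPM in GFP and 12.04, 11.8, 11.3 and 14.3 in GFP_TGFB. With the Cre virus it stood at 7.29, 7.33, 7.00 and 10.2 CPM without TGFB and, with TGFB, at 12.6, 8.97, 13.0 and 14.5. The GFP groups were well separated, and the Cre groups overlapped through Cre replicate 4 and Cre_TGFB replicate 2. Pfkfb4 rose by 0.87 ± 0.16 in GFP cells (edgeR adjusted p = 0.000871) and 0.63 ± 0.16 in Cre cells (adjusted p = 0.00753). The Cre call was lost without preparation 1 (adjusted p = 0.0978) or preparation 3 (0.0784). Pfkfb3, the more abundant of the pair, stood at 63.3 ± 8.60 CPM in GFP and 46.7 ± 9.87 in GFP_TGFB without overlap (-0.44 ± 0.21, adjusted p = 0.136). With the block it fell in GFP cells (-0.46 ± 0.12, adjusted p = 0.00637) and in Cre cells (-0.59 ± 0.12, adjusted p = 0.000944).

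None of the 6 genes of lower glycolysis was called in GFP cells without the block. Pkm, the pyruvate kinase, stood at 3009 ± 210.4 CPM in GFP and 3155 ± 104 in GFP_TGFB (0.07 ± 0.09, 95% interval -0.13 to 0.27). Eno1, the main enolase, stood at 1405 ± 140.3 and 1474 ± 98.8 CPM (0.07 ± 0.11, interval -0.16 to 0.30), and the neuronal form Eno2 at 8.01 ± 2.78 and 8.70 ± 1.90 (0.12 ± 0.26). The interval of Eno2 was -0.44 to 0.68, wider than those of Pkm and Eno1. Pgam1, the phosphoglycerate mutase, stood at 316 ± 18.5 and 348 ± 24.1 CPM (0.14 ± 0.10).

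Gapdh, often used as a reference gene, stood at 2005, 2564, 2352 and 2443 CPM in GFP and 2793, 2939, 2606 and 2872 in GFP_TGFB. Every GFP_TGFB library was above every GFP library. The difference of 0.26 ± 0.10 was not called (edgeR adjusted p = 0.0739), but it was with the block (adjusted p = 0.0129) and, at the threshold, without preparation 4 (0.0499993). In Cre cells it was 0.12 ± 0.10 (adjusted p = 0.419). Pgk1, the phosphoglycerate kinase and a widely used HIF target, stood at 997, 1058, 1106 and 1067 CPM in Cre and 941, 893, 822 and 887 in Cre_TGFB. The groups did not overlap, and Pgk1 was called lower in Cre cells (-0.25 ± 0.08, adjusted p = 0.0304) but not in GFP cells (-0.13 ± 0.08, adjusted p = 0.283). The Cre call was lost without any 1 of Cre replicates 2 (adjusted p = 0.0641), 3 (0.0773) and 4 (0.0620) or Cre_TGFB replicates 2 (0.0567) and 3 (0.0727), and without preparation 1 (0.0637), 2 (0.142) or 3 (0.228). It was lost too with no filter on low counts (0.102), in a fit of the 8 compared libraries alone (0.110), and with the block when preparation 2 (0.0525) or 3 (0.102) was left out. With the block and all preparations the Cre difference of Pgk1 was -0.25 ± 0.07 (edgeR adjusted p = 0.00842).

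At the branch point of pyruvate, Pdk1 and Ldhb fell under both viruses. Pdk1, the kinase that switches pyruvate dehydrogenase off, stood at 73.7, 78.2, 89.6 and 75.9 CPM in GFP and 44.4, 37.5, 44.1 and 21.6 in GFP_TGFB. The Cre levels were 76.9, 81.5, 97.0 and 73.7 CPM and the Cre_TGFB levels 43.7, 33.8, 38.3 and 18.6. All libraries with TGFB were below all those without, and preparation 4 was the lowest with TGFB under both viruses. Pdk1 fell to 0.464 times its level in GFP cells (-1.11 ± 0.24, edgeR adjusted p = 0.00267) and 0.409 times in Cre cells (-1.29 ± 0.24, adjusted p = 0.000854). Its target Pdha1, the alpha subunit of the first enzyme of the complex, stood at 173 ± 4.47 and 157 ± 10.1 CPM in GFP and GFP_TGFB (-0.14 ± 0.08, adjusted p = 0.220).

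Ldhb, the heart-type lactate dehydrogenase subunit, stood at 17.3, 17.4, 12.3 and 11.9 CPM in GFP and 8.42, 8.94, 7.14 and 7.20 in GFP_TGFB. Its Cre levels were 17.8, 17.1, 10.7 and 16.7 CPM and its Cre_TGFB levels 8.11, 7.91, 5.93 and 9.74. The groups did not overlap under either virus. On the log2 scale the change was -0.89 ± 0.19 in GFP cells (edgeR adjusted p = 0.00281) and -0.98 ± 0.19 in Cre cells (adjusted p = 0.00143). Ldha, the muscle-type subunit that carries nearly all lactate dehydrogenase reads here, stood at 1325 ± 104 CPM in GFP and 1171 ± 26.3 in GFP_TGFB (-0.18 ± 0.09, adjusted p = 0.142), and passed the test there with the block (adjusted p = 0.0484). In Cre cells Ldha fell from 1426 ± 88.2 to 1147 ± 81.5 CPM (-0.31 ± 0.09, adjusted p = 0.0135), a call that was lost without preparation 1 (adjusted p = 0.0585), 2 (0.0862) or 3 (0.133) and in a fit of the 8 compared libraries alone (0.0746). With the block the Cre difference of Ldha was -0.31 ± 0.07 (edgeR adjusted p = 0.00151).

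The lactate carriers Slc16a1 (MCT1) and Slc16a3 (MCT4) were not called in any comparison. Slc16a3, the form that exports lactate from glycolytic cells, stood at 151, 217, 218 and 194 CPM in GFP and 238, 210.0, 199 and 136 in GFP_TGFB. Its within-preparation log2 differences in GFP cells were 0.65, -0.05, -0.13 and -0.51, so preparation 1 was higher with TGFB and preparation 4 lower. Slc16a1 did the reverse, with -0.10, -0.04, 0.01 and 0.75 in GFP cells and -0.20, -0.15, 0.01 and 0.76 in Cre cells.

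**Figure D2:**
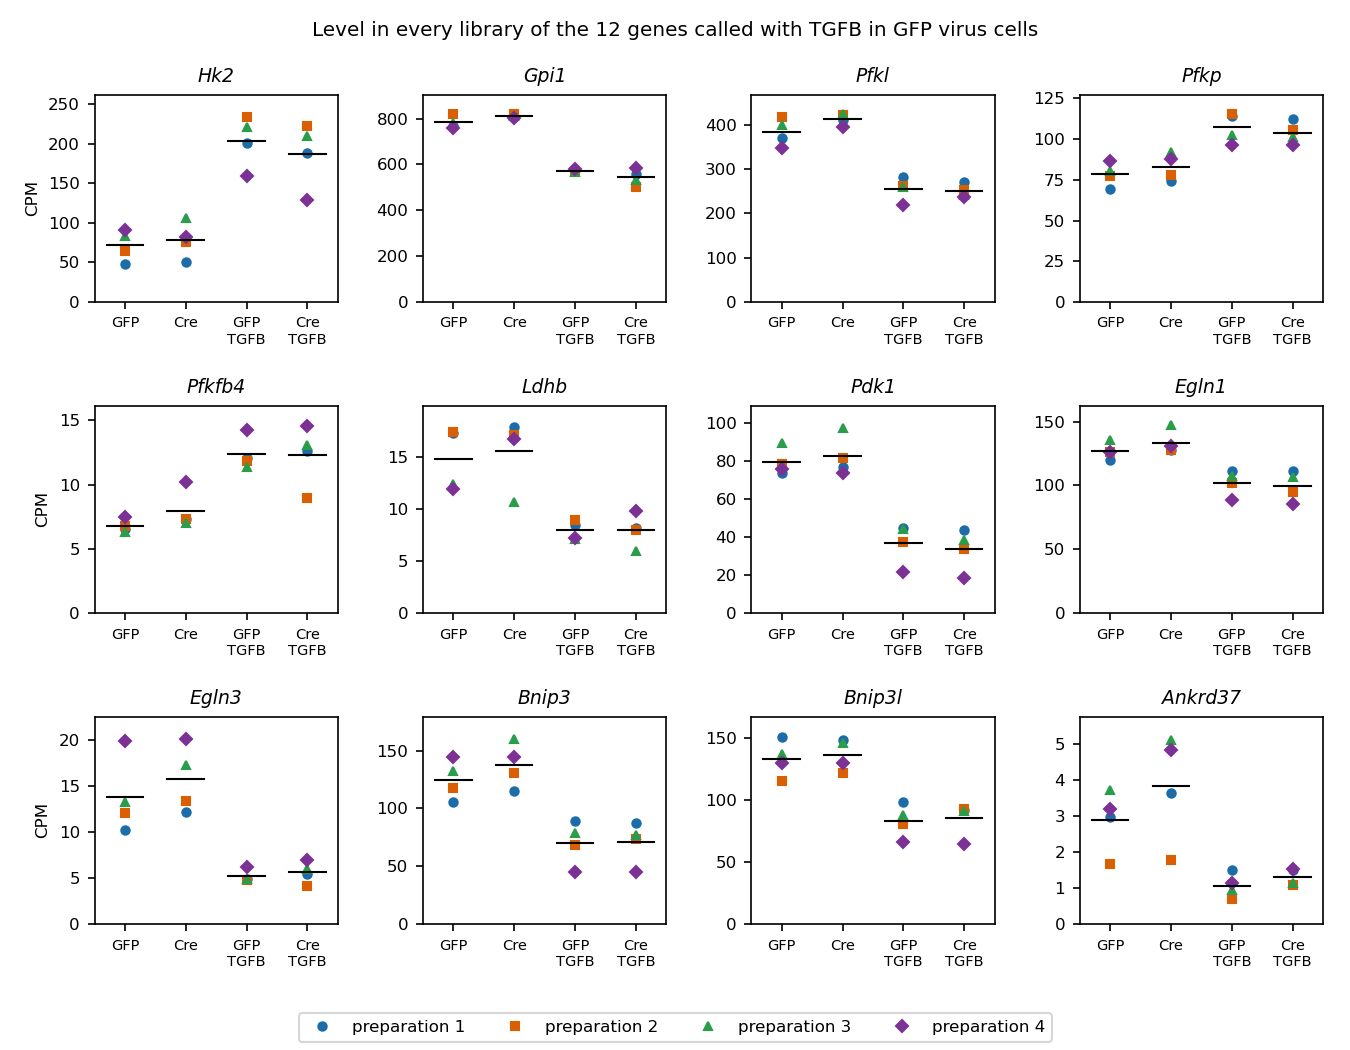
CPM in every library of the 12 genes called with TGFB in GFP virus cells, on linear axes from 0. Points are libraries, with marker and colour for preparations 1 to 4, and horizontal lines are group means. The groups with and without TGFB are separate in GFP cells for all 12. Preparation 4 has the lowest TGFB level of Hk2, Pfkl, Pfkp, Pdk1, Egln1, Bnip3 and Bnip3l under both viruses.

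Of the HIF system, both prolyl hydroxylases fell and Hif1a, which encodes the regulated subunit, was not called. Egln3, itself a HIF target, stood at 10.2, 12.1, 13.3 and 19.9 CPM in GFP and 4.85, 4.74, 4.91 and 6.21 in GFP_TGFB. Cre libraries held 12.2, 13.4, 17.3 and 20.1 CPM and Cre_TGFB libraries 5.42, 4.18, 5.93 and 6.93. Levels without TGFB were spread, lowest in preparation 1 and highest in preparation 4, and all lay above the levels with it. Egln3 fell to 0.375 times its level in GFP cells (-1.42 ± 0.22, edgeR adjusted p = 0.000235) and 0.357 times in Cre cells (-1.49 ± 0.22, adjusted p = 0.000143).

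Egln1, the main oxygen sensor of the family, stood at 120.0, 126, 136 and 126 CPM in GFP and 111, 102, 107 and 88.5 in GFP_TGFB. The levels were 128, 128, 147 and 131 CPM in Cre and, in Cre_TGFB, 111, 94.6, 107 and 85.0. All 8 libraries with TGFB were below all 8 without it, with the lowest TGFB levels in preparation 4. The log2 fold change was -0.31 ± 0.10 in GFP cells (edgeR adjusted p = 0.0266) and -0.43 ± 0.10 in Cre cells (adjusted p = 0.00454). The GFP call was lost without GFP replicate 3 (adjusted p = 0.0692), GFP_TGFB replicate 2 (0.0565) or GFP_TGFB replicate 4 (0.0860), without preparation 1 (0.0600), 2 (0.145) or 3 (0.146), and with no filter on low counts (0.0806). With the block the GFP difference of Egln1 was -0.32 ± 0.07 (edgeR adjusted p = 0.00245).

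Hif1a stood at 196, 163, 199 and 225 CPM in GFP and 233, 155, 199 and 108 in GFP_TGFB. With the Cre virus it stood at 181, 186, 213 and 184 CPM without TGFB and, with TGFB, at 239, 201, 252 and 77.7. With TGFB preparation 4 had the lowest level under both viruses, while its GFP library was the highest of that group. The fitted difference was -0.18 ± 0.29 in GFP cells (95% interval -0.79 to 0.44, edgeR adjusted p = 0.693) and 0.01 ± 0.29 in Cre cells (interval -0.60 to 0.62, adjusted p = 0.982). Without preparation 4 it was 0.07 in GFP cells and 0.26 in Cre cells, not called in either (adjusted p = 0.749 and 0.167), so the direction in GFP cells turned with that preparation. HIF-1 is controlled mainly through the stability of this protein, which RNA counts do not measure.

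Of the 5 hypoxia targets, 3 fell. Bnip3, a mitochondrial protein that marks mitochondria for removal, stood at 105, 118, 132 and 144 CPM in GFP and 89.3, 68.1, 78.5 and 45.4 in GFP_TGFB. Its Cre levels were 115, 130.5, 160.4 and 144 CPM and its Cre_TGFB levels 87.2, 73.7, 77.0 and 45.1. The groups did not overlap, and the difference within preparation 4 was the largest of the 4 under both viruses. The log2 fold change was -0.83 ± 0.21 in GFP cells (edgeR adjusted p = 0.00797) and -0.96 ± 0.21 in Cre cells (adjusted p = 0.00305). The GFP call was lost without preparation 2 (adjusted p = 0.0679) or 3 (0.0604), and held without preparation 4 (0.00425). With the block the GFP difference of Bnip3 was -0.86 ± 0.20 (edgeR adjusted p = 0.00313).

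Bnip3l, the close relative of Bnip3 with the same role, stood at 151, 116, 137 and 130.4 CPM in GFP and 98.3, 80.6, 88.0 and 65.9 in GFP_TGFB. Cre libraries held 149, 122, 146 and 130.0 CPM and Cre_TGFB libraries 92.1, 92.9, 91.3 and 64.9. No library with TGFB reached a library without it, and preparation 4 was again lowest with TGFB. The log2 fold change was -0.68 ± 0.14 in GFP cells (edgeR adjusted p = 0.00183) and -0.68 ± 0.14 in Cre cells (adjusted p = 0.00186). Ankrd37, a small ankyrin-repeat gene strongly induced by HIF, was scarce, at 2.97, 1.66, 3.72 and 3.19 CPM in GFP and 1.51, 0.700, 0.936 and 1.13 in GFP_TGFB. The levels were 3.63, 1.77, 5.11 and 4.84 CPM in Cre and, in Cre_TGFB, 1.49, 1.09, 1.15 and 1.52. Preparation 2 was lowest in all 4 groups, and the groups did not overlap. The log2 fold change was -1.44 ± 0.35 in GFP cells (adjusted p = 0.00554) and -1.54 ± 0.34 in Cre cells (adjusted p = 0.00292), lost without preparation 3 in both (adjusted p = 0.0739 and 0.0518). With the block the edgeR adjusted p of Ankrd37 was 0.000115 in GFP cells and 3.47e-05 in Cre cells. Ankrd37 exons overlap Ufsp2 and Lrp2bp on the other strand, and it is not stated whether the counting used strand, so reads from them cannot be told apart. The same limit holds for Gpi1 (11.5% of its exon bases), Pfkp (5.6%) and Bnip3 (22.3%), which also overlap genes on the other strand. For Pfkp that gene is Pitrm1, with 31484 counts over all libraries against 41621 for Pfkp. The gene that overlaps Bnip3 had 15 counts. Some members that were not called, such as Pkm, overlap other genes as well.

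Car9, the cell-surface carbonic anhydrase, had 0 to 91 counts a library, with 0.113, 1.55, 0.698 and 0.862 CPM in GFP and 0, 0.350, 0.175 and 0.366 in GFP_TGFB. The groups overlapped, and the difference (-1.71 ± 0.79, adjusted p = 0.119) passed with the block (adjusted p = 0.0168). Ndrg1, a stress-induced gene, stood at 22.8, 31.9, 22.1 and 15.9 CPM in GFP and 24.6, 52.7, 22.2 and 8.63 in GFP_TGFB. Preparation 2 was high and preparation 4 low with TGFB, and no difference was called (0.22 ± 0.49, adjusted p = 0.777). Its direction differed between preparations, with 0.11, 0.72, 0.00 and -0.88 in preparations 1 to 4.

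**Figure D3:**
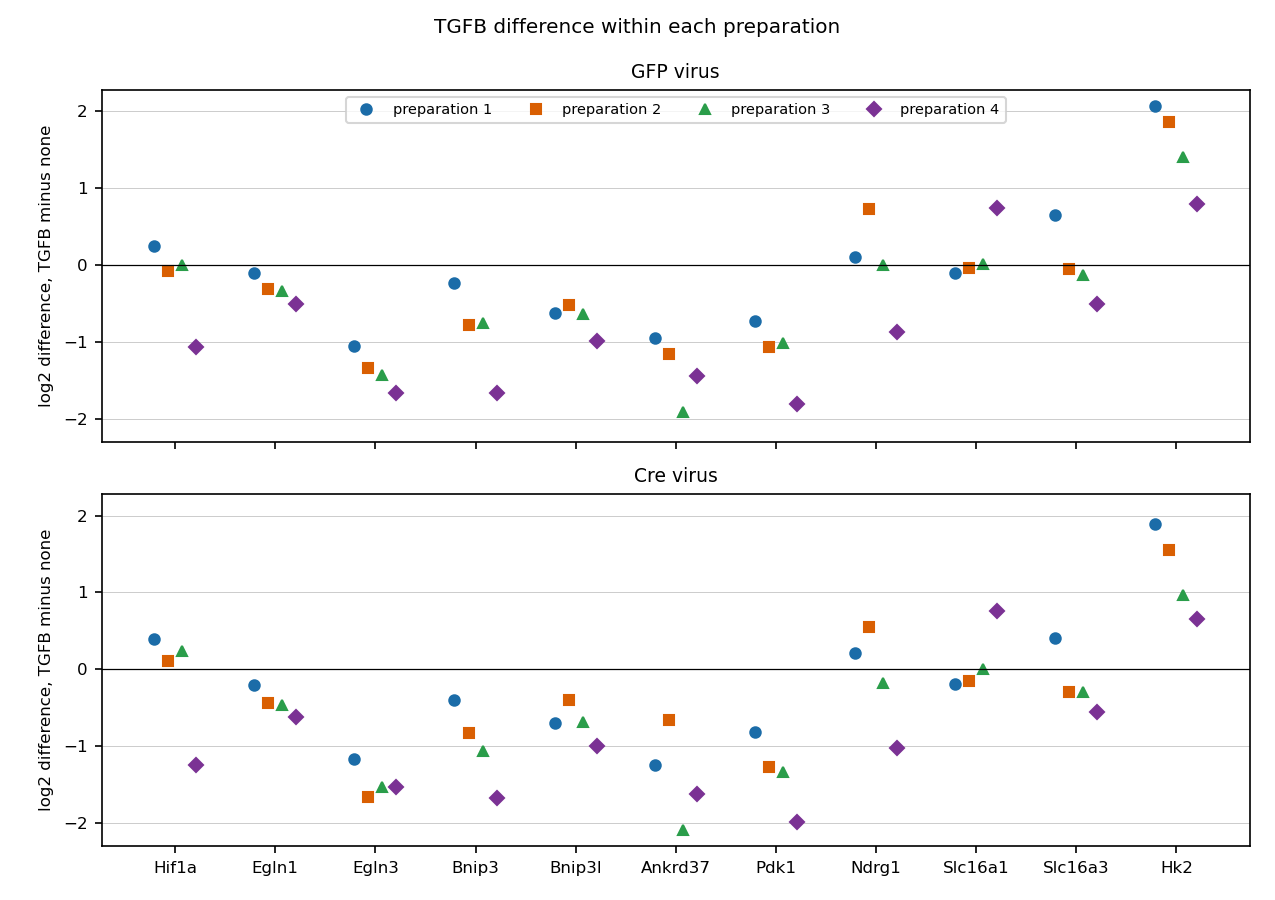
Log2 difference between the TGFB library and its partner without TGFB within each preparation, for 11 members chosen after their values were seen, in GFP virus (top) and Cre virus cells (bottom). Each point is 1 pair of libraries. Preparation 4 lies lowest for Hif1a, Egln1, Bnip3, Bnip3l, Pdk1, Ndrg1, Slc16a3 and Hk2 and highest for Slc16a1 under both viruses.

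The member median was below 0 with TGFB in each preparation under both viruses, but in GFP preparation 1 it was near 0, with 16 members higher and 16 lower. The median difference over the 32 members within preparations 1 to 4 was -0.04, -0.13, -0.15 and -0.29 in GFP cells and -0.09, -0.27, -0.32 and -0.30 in Cre cells. Over all genes the medians were -0.026, 0.008, -0.001 and -0.049 in GFP cells and -0.016, -0.001, -0.003 and -0.037 in Cre cells. The spread of the TGFB differences over all genes was alike in the 4 preparations (SD 0.90 to 1.02 log2). The share of counts held by the top 10 genes was 6.88% to 7.34% in preparation 4 and 10.3% to 12.1% elsewhere, and the part of this in the member values was not tested.

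Where an enzyme has several forms, the balance between them was read from levels per kb of principal transcript. These shares were chosen after their values were seen and carry no test. Hk2 made up 12.7, 15.04, 18.8 and 22.9% of the hexokinase level (Hk1 with Hk2) in GFP preparations 1 to 4 and 39.6, 43.0, 41.5 and 36.9% in GFP_TGFB. The means were 17.4% ± 4.50 (SD, n = 4) and 40.3% ± 2.66, and in Cre and Cre_TGFB 18.2% ± 3.98 and 38.8% ± 3.40. With the length of all annotated exons in place of the principal transcript, an alternative chosen after seeing the data, the GFP means were 29.9% and 57.9%, so which form is the larger with TGFB depends on the length used and the upward direction does not. On principal transcript lengths the summed hexokinase level with TGFB was 1.22 times that without it in GFP cells and 1.12 times in Cre cells. The size of this ratio also depends on the length used, and it is not given for all exons.

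Among phosphofructokinases Pfkl went from 68.9% ± 1.16 of the family level in GFP to 57.6% ± 1.62 in GFP_TGFB while Pfkp went from 12.7% ± 1.97 to 21.8% ± 0.869 and Pfkm from 18.4% ± 2.83 to 20.6% ± 1.62. With the length of all exons Pfkp made up 6.79% and 11.9%. On principal transcript lengths the summed level with TGFB was 0.796 times that without it in GFP cells and 0.734 times in Cre cells. Pfkl held most of it in every group. Pfkfb4 went from 12.6% ± 2.12 to 26.6% ± 6.50 of the PFKFB3 and PFKFB4 level, and Ldhb from 1.504% ± 0.414 to 0.908% ± 0.0960 of lactate dehydrogenase. Eno1 and Aldoa held nearly all of their families in every library.

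**Figure D4:**
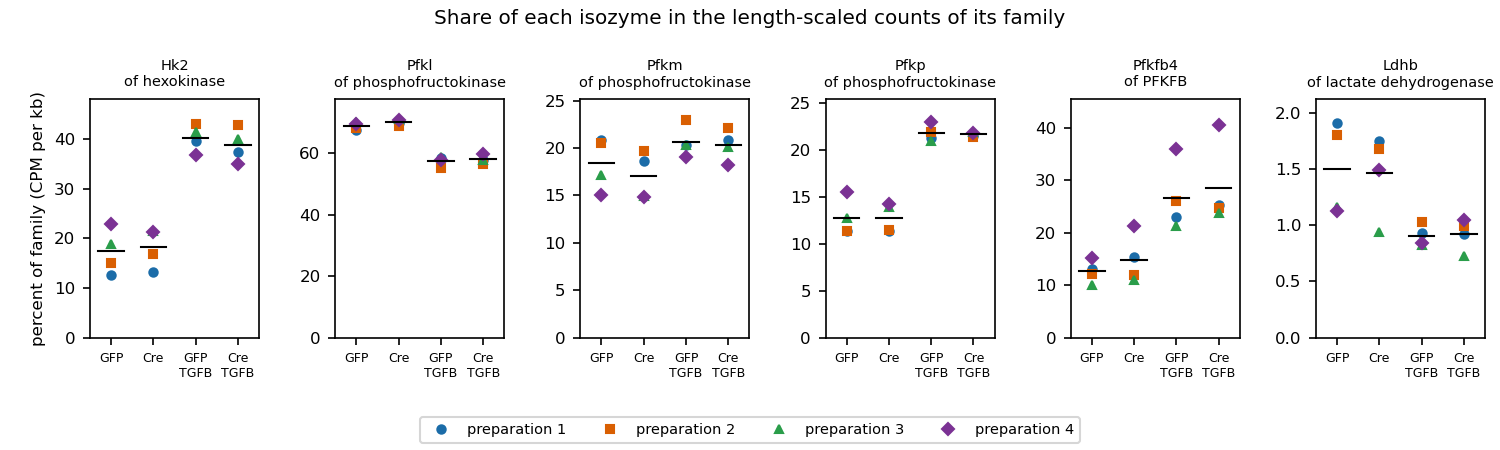
Share of an isozyme in the summed level of its family (CPM per kb of principal transcript) in every library, on linear axes from 0. Points are libraries by preparation and lines are group means. Hk2, Pfkp and Pfkfb4 shares are higher in every TGFB library than in the libraries without it under the same virus, and Pfkl shares are lower.

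The comparison of Cre with GFP virus asks whether the virus given to remove Has2 exon 2 altered these genes. No member was called without TGFB (edgeR's quasi-likelihood test called 0% of all genes, and 0 of 32 members had an unadjusted p under 0.05), with the block (0.17% of all genes) or with DESeq2. Of all genes 169 had an unadjusted p under 0.05 and DESeq2 called 2. With TGFB no member was called either, by edgeR (0% of all genes, 0 members and 268 genes at an unadjusted p under 0.05), or by DESeq2, or after adding the block (0.0654% of all genes). Leaving out preparation 4 called no member in either medium, with or without the block. In that setting the block fit called 0.678% of all genes higher and 0.0724% lower without TGFB. With TGFB these shares were 1.48% and 0.0527%. The 95% interval lay within ± 1 log2 for 28 members in each medium, and within ± 0.5 for 20 without TGFB and 22 with it. Car9 had the widest intervals, -1.57 to 1.37 without TGFB and -2.12 to 1.63 with it. For Gpi1 they were -0.11 to 0.20 and -0.22 to 0.08, and for Hk2 -0.38 to 0.63 and -0.63 to 0.38.

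**Figure D5:**
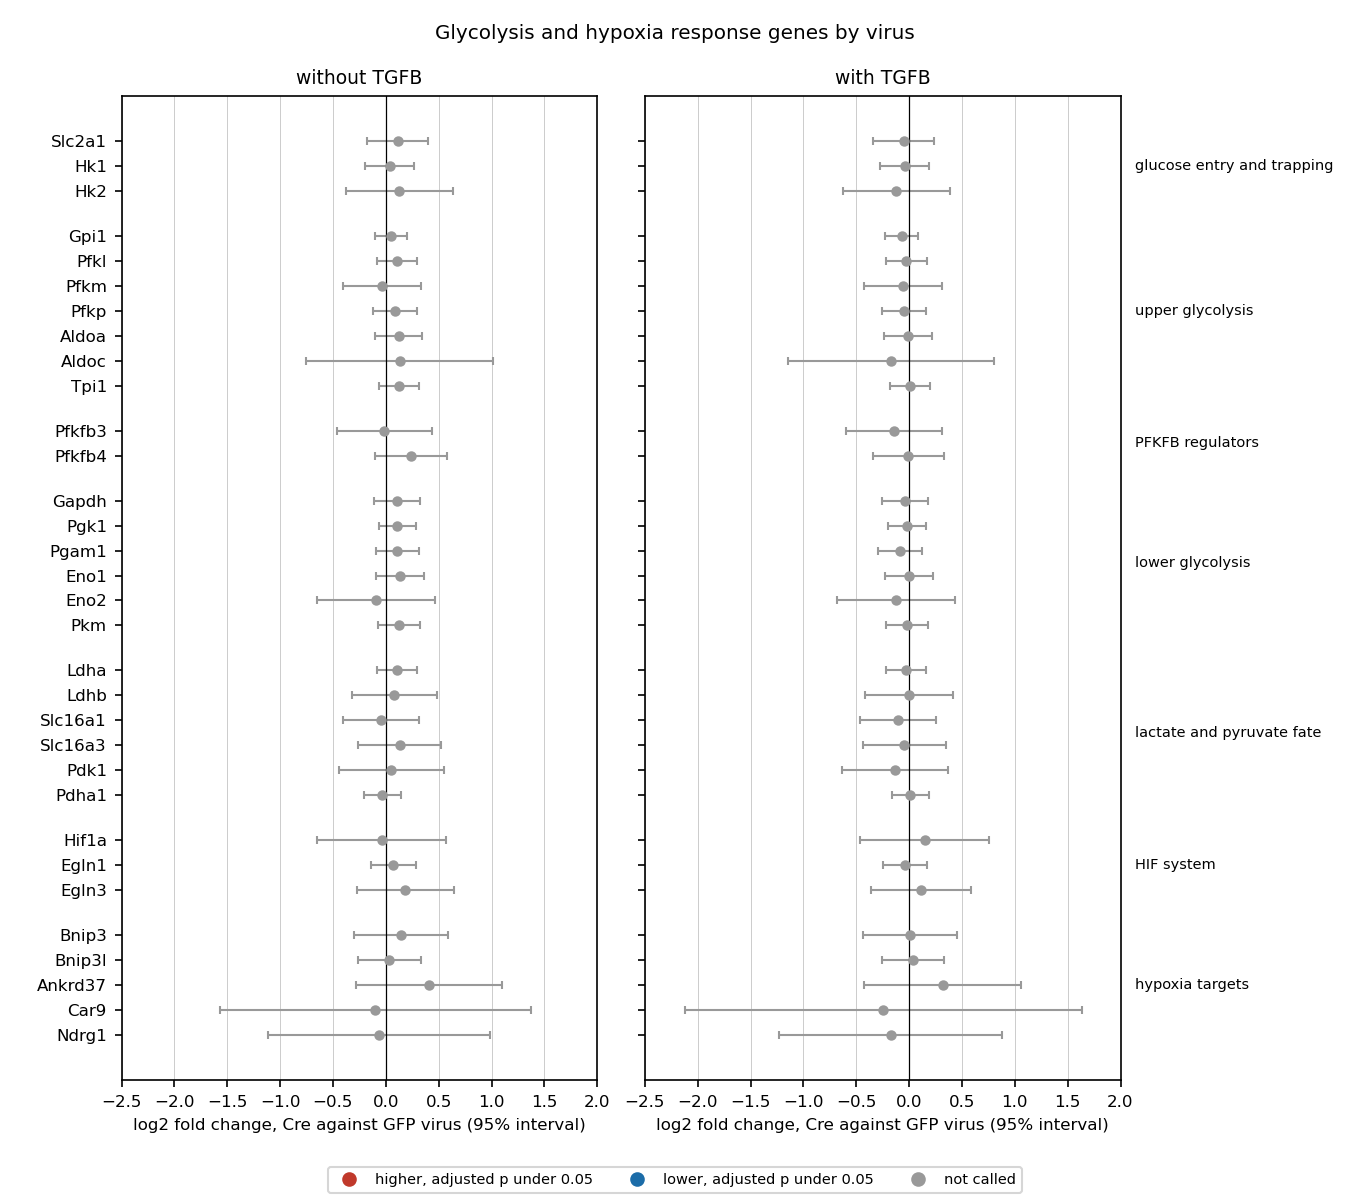
Log2 fold change of each of the 32 genes in Cre against GFP virus cells, without TGFB (left) and with it (right). Points are fitted values and bars are 95% intervals. Every interval includes 0, and those of Car9, Aldoc and Ndrg1 are the widest.

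Without TGFB the members lay slightly above 0 as a list. The median was 0.11 log2, against -0.01 over all genes, and within preparations 1 to 4 it was 0.10, 0.06, 0.11 and 0.06. In all 4 preparations 17 of 32 members were higher in the Cre library and 1 (Ndrg1) was lower, against 12.7% and 13.3% of all genes. The 17 included the abundant enzymes Aldoa, Tpi1, Gapdh, Pgk1, Pgam1, Eno1, Pkm and Ldha. Pkm stood at 2715, 3049, 3055 and 3216 CPM in GFP and 3075, 3169.9, 3406 and 3464 in Cre. It was higher in Cre in each preparation while the groups overlapped, and the difference was 0.12 ± 0.09. Ankrd37 had the largest fitted difference, 0.41 ± 0.32 (interval -0.28 to 1.10). No member separated the groups without overlap, against 1.13% of all genes higher and 0.334% lower. The median was 0.04 without GFP replicate 1, 0.06 without Cre replicate 3 and 0.13 at most when any 1 library was left out.

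Depth and gene length moved with this comparison. Cre libraries held 21.7 to 48.7 M counts and GFP libraries 17.9 to 28.0 M, and across 15259 genes the fitted Cre difference had a Spearman correlation of -0.38 with exon length (-0.28 with TGFB), as a description over genes of the same libraries. Its correlation with level was -0.005 without TGFB and -0.16 with it. The median exon length was 3996 bases for the members and 4070 for all genes, and the part of length in the member median was not tested. These lengths cover all annotated exons. Principal transcripts of the abundant enzymes named above ran from 1420 (Gapdh) to 2432 bases (Pkm). Those of the other members higher in all 4 preparations ran from 927 (Ankrd37) to 4335 bases (Slc16a3). The correlation with principal transcript length was not computed. With TGFB the member median was -0.04, 0 members were higher and 7 were lower in all 4 preparations, against 10.1% and 14.1% of all genes, and no member separated the groups (0.824% of all genes higher and 0.752% lower).

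The difference between the TGFB responses of Cre and GFP cells was tested directly and no member was called (0% of all genes, and 0% with the block). No member and 90 of all genes had an unadjusted p under 0.05, and DESeq2 called no gene. The fitted differences ranged from -0.30 (Aldoc) to 0.19 (Hif1a), with a median of -0.13 against -0.01 over all genes. The interval lay within ± 0.5 log2 for 15 members. The calls of Pgk1, Ldha and Aldoc in Cre cells alone are therefore not shown to differ from GFP cells, with differences of -0.13 ± 0.12, -0.14 ± 0.12 and -0.30 ± 0.62 (edgeR adjusted p = 0.999986 for each).

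Other genes of these pathways were read from lists drawn up with earlier results of these data known. Beside the counts for each pathway list, 13.8% of all genes tested were called higher and 15.3% lower with TGFB in GFP cells. In Cre cells these shares were 14% and 16.3%, and no list was tested as a set. Of 25 further glycolytic enzymes and glucose carriers, 18 were tested, and 4 rose and 2 fell with TGFB in GFP cells (4 and 4 in Cre cells). The risers were the ADP-dependent glucokinase Adpgk (0.72 ± 0.11, edgeR adjusted p = 0.000206), the fructose 2,6-bisphosphatase-like Tigar (0.69 ± 0.12), Pgam5 (0.57 ± 0.10), a mitochondrial phosphatase despite its name, and Pgm2 (0.43 ± 0.08). Of 16 genes of the pyruvate dehydrogenase complex and pyruvate entry 3 rose and 3 fell under each virus. Dlat (0.64 ± 0.08) and Pdhb (0.48 ± 0.10), both core subunits, rose, and the kinases Pdk4 (-0.71 ± 0.14) and Pdk3 (-0.37 ± 0.08) fell as Pdk1 did. Of 10 pentose phosphate genes 3 rose and 2 fell under each virus, with Tkt (0.53 ± 0.10) and Taldo1 (0.56 ± 0.16) of the non-oxidative arm higher and the dehydrogenases H6pd (-1.23 ± 0.18) and G6pdx (-0.51 ± 0.12) lower in GFP cells.

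Of 15 HIF pathway regulators 14 were tested, and 4 rose and 1 fell under each virus. The gene that fell was Epas1, which encodes HIF-2 alpha, from 262 ± 112 to 29.4 ± 12.8 CPM in GFP cells (-3.16 ± 0.50, edgeR adjusted p = 0.000251). Cited2, a competitor of HIF for its coactivator, rose (0.75 ± 0.11), as did the ubiquitin ligase gene Siah2 (0.73 ± 0.18) and the chaperone gene Hsp90ab1 (0.30 ± 0.09). Of 34 other hypoxia-induced genes 6 rose and 12 fell in GFP cells, where their median was -0.08, and 6 rose and 13 fell in Cre cells. Vegfa, the angiogenic factor, rose from 171 ± 25.4 to 588 ± 57.5 CPM (1.78 ± 0.12, adjusted p = 9.00e-08), Bhlhe41 (1.51 ± 0.15), a transcriptional repressor, rose, and the glycogen regulator Ppp1r3c fell from 62.5 ± 18.5 to 1.503 ± 1.15 CPM (-5.46 ± 0.53).

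Markers of other cell types moved with TGFB beside these genes. The summed level of 10 macrophage markers was 659 to 1334 CPM in GFP and 401 to 844 in GFP_TGFB, and 3 of the 10 fell. For 10 pericyte markers the sums were 453 to 865 and 293 to 666 CPM, with 4 of 8 tested lower and 1 higher. For 10 endothelial markers they were 50.3 to 86.3 and 32.2 to 53.6 CPM, with 3 lower. For 10 mesothelial markers they were 3.31 to 6.26 and 3.18 to 4.68 CPM, with Muc16 at 0 in all libraries and 1 of 6 tested lower. The part of these cells in the member differences was not tested, and in bulk RNA fewer cells of a type and less RNA per cell cannot be told apart.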

How the data were processed

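RNA-seq was analysed from 16 libraries in 4 groups of 4. Raw counts per Ensembl gene were deposited by the authors in 1 table. The submitters' processing notes name FastQC 0.10.1, HTSeq 0.10.0 and the build mm39 (GRCm39). Aligner, annotation and strandedness were not given in the sources used here. Samples were grouped by their titles, with TGFB and the virus taken from the labels.

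Counts were fitted as deposited with edgeR 4.0.16 (R 4.3.3, limma 3.58.1): TMM scaling, a filter on low counts (filterByExpr, minimum count 10 and minimum total 15, leaving 15285 genes with 99.9% of the counts and 40129 genes not tested), 1 mean per group over all 16 libraries and the robust quasi-likelihood F test, with Benjamini-Hochberg adjustment over all genes at 0.05. CPM are counts scaled to library size with TMM factors. The fit with the replicate number as a block is an alternative. Libraries of the same number deviated from their group means together in all 24 pairs (r 0.323 to 0.838, median 0.497, against a median of -0.130 over 72 pairs of other numbers), so the numbers were taken to pair the libraries. Other alternatives were DESeq2 1.42.0, DESeq2-type size factors, no filter, a stricter filter (CPM of at least 5 in 4 libraries), only the compared libraries, and leaving out each library or preparation. Lengths came from GENCODE M21 and promoter sequences from RefSeq, both on GRCm38 and matched by identifier or symbol.

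All 32 members are accounted for by role. Every library is given for the 12 members with the smallest adjusted p for TGFB in GFP cells, and up to 4 genes with the smallest adjusted p are named from each other pathway list for the same comparison, while marker lists of cell types are given by sums and counts. One gene that this rule names is not reported here. Library values given for further members were added after their values were seen. The members and lists were chosen with earlier results of these data known. Pgm1 and Slc2a3 stand in 2 lists each. Counts carry no molecular identifiers, so intervals cover the fitted spread between libraries only.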

Additional observations from a re-analysis of the deposited data

Results flagged for a closer look

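Within a group of 4 libraries, a level was picked out when its gap to the nearest other library, divided by the range of the group, exceeded Dixon's 95% critical value for 4 samples. This happened in 9 of 128 groups (32 genes in 4 groups), and chance picks out about 1 group in 20.

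Hk1 stood at 189 CPM in GFP_TGFB replicate 4, below the 213 to 218 of the other 3 libraries. Eno1 stood at 1194 CPM in GFP replicate 1, below 1475 in the others, and Ldhb at 10.7 CPM in Cre replicate 3, below 16.7 to 17.8. Bnip3l stood at 64.9 CPM in Cre_TGFB replicate 4, below 91.3 to 92.9, and its call in Cre cells held when that library was left out. Pfkfb4 stood at 10.2 CPM in Cre replicate 4, above 7.00 to 7.33. Cre replicate 3 was high for Hif1a (213 CPM, others 181 to 186) and Egln1 (147 CPM, others 128 to 131). Egln3 stood at 6.21 CPM in GFP_TGFB replicate 4, above 4.74 to 4.91. Car9 stood at 1.87 CPM in Cre replicate 2, above 0.276 to 0.444, at very low counts.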

How the results depend on the processing

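With the replicate block, 5 members were called higher and 15 lower with TGFB in GFP cells, and the block changed no call in the Cre comparisons or the difference of responses. The count called higher in GFP cells was also 5 with the block and without replicate 4. Leaving out 1 library or 1 preparation gave 2 to 5 higher and 6 to 9 lower in GFP cells and 1 to 3 higher and 8 to 14 lower in Cre cells, and 0 for the Cre comparisons and the difference of responses. Over the same settings the share of all genes called ran from 6.67% to 18.6% higher and 7.88% to 21.3% lower in GFP cells and from 6.44% to 20.2% and 8.62% to 22.5% in Cre cells. The low of 1 came without preparation 1, where all 4 shares were also lowest. The member median then ran from -0.20 to -0.08 (GFP) and -0.28 to -0.16 (Cre) for TGFB, from 0.0392 to 0.132 and -0.06 to -0.01 for Cre without and with TGFB, and from -0.16 to -0.09 for the difference. With the block and without replicate 3 the Cre median without TGFB was 0.0777. The cause was not tested. Alternatives for single genes were followed only for TGFB calls of the fit without a block, so calls gained elsewhere, as with the block, are not counted. Of these and the alternatives for isozyme shares, 542 kept their direction and, for calls, their side of the threshold. Another 50 lost the call, 5 isozyme shares moved with the length used and none reversed. Ankrd37 and Aldoc were not tested under the stricter filter. Depth limits Car9, Aldoc and Ankrd37 most.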
